A study of Mus musculus with 6 samples.

Results

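The control peak lists of C/EBPα and JUNB in resting mouse bone marrow-derived macrophages were compared with each other. Together they hold 28426 peaks of the 134964 in the 6 lists of the series, 24486 for C/EBPα and 3940 for JUNB. Peaks of the 2 lists that shared at least 1 bp were called co-bound, which split them into C/EBPα peaks with JUNB (2841) and without JUNB (21645), and JUNB peaks with C/EBPα (2849) and without C/EBPα (1091). The macrophages came from wild-type mice of 8-12 weeks on the C57BL/6 background and were grown from marrow for 6 days with L929 supernatant, a source of the growth factor M-CSF. They had received no IL-4. The same cells given 20 ng/ml IL-4 for 1 h, and the IRF8 list of the control cells, served as outside readouts. Chromatin was fixed with DSG and then formaldehyde, a double fixation that can also hold proteins bound through a partner, so an overlap of 2 peaks does not show that both proteins touch the DNA. Each antibody was used on 1 control sample, so no value has a replicate error. Wilson or Newcombe 95% intervals are given for shares and their differences, order-statistic 95% intervals for medians, and all of them cover counting error over the peaks only. Peak lists hold no expression values, and the labelled cell type was not checked here.

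C/EBPα and JUNB are both basic leucine zipper proteins, which grip DNA as dimers. C/EBPα pairs within its own family, binds TTGCNNAA-like sites and directs the myeloid lineage. JUNB is a subunit of AP-1, which it forms with FOS, JUN or BATF partners, and the classic AP-1 site is TGACTCA. In macrophages both families bind enhancers that the lineage factor PU.1 also occupies, and the C/EBP and AP-1 proteins can form mixed dimers that read a hybrid of the 2 half-sites. The comparison addresses where in the resting genome the 2 factors meet.

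The 8 sequences below are the 200 bp around the centre of high-ranking peaks of each class, among the first 3 that were intronic or intergenic and off annotated repeats. They are shown as examples of high-ranking sites of each class, with and without an exact AP-1 or C/EBP match. Bases were read from GRCm38, the assembly that mm10 names, on the plus strand. Capitals mark exact matches, on either strand, to the AP-1 motif TGACTCA, the C/EBP motif TTGCNNAA or the hybrid motif TGANGCAA.
Co-bound, 36101 bp from the TSS of Gm19589, intergenic, chr1:88587518-88587717: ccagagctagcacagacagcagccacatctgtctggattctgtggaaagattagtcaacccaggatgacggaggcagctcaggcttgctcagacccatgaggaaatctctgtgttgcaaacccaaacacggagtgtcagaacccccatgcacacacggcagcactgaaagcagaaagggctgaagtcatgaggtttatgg
Co-bound, intron 1 of 8 of Nudt13, chr14:20298220-20298419: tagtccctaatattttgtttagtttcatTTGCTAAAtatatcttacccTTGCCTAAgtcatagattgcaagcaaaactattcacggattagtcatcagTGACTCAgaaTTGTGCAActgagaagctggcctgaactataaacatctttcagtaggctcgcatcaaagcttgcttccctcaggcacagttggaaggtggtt
Co-bound, 67646 bp upstream of Gm13498, intergenic, chr2:50841938-50842137: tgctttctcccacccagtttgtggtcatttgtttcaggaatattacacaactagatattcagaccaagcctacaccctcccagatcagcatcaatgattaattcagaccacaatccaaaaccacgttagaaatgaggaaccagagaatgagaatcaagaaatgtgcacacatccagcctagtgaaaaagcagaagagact
C/EBPα without JUNB, 39878 bp upstream of Tada1, intergenic, chr1:166339189-166339388: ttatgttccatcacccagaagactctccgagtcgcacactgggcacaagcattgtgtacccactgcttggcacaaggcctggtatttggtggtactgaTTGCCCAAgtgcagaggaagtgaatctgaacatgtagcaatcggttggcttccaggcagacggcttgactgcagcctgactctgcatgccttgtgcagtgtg
C/EBPα without JUNB, intron 1 of 8 of Htra1, chr7:130943335-130943534: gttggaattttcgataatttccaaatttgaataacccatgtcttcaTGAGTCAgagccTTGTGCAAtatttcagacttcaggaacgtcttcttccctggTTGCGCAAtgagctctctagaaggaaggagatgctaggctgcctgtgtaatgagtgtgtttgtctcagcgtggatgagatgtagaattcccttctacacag
C/EBPα without JUNB, 33013 bp upstream of Wsb1, intergenic, chr11:79287608-79287807: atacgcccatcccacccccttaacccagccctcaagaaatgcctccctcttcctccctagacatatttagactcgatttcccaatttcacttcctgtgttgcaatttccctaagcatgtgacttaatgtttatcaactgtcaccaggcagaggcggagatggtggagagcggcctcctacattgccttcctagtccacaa
JUNB without C/EBPα, 203010 bp from the TSS of Calcrl, intergenic, chr2:84222156-84222355: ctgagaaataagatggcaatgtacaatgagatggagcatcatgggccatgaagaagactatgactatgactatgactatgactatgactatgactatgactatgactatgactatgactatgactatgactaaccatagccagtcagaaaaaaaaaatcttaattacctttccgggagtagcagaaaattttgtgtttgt
JUNB without C/EBPα, intron 2 of 9 of Rnh1, chr7:141164928-141165127: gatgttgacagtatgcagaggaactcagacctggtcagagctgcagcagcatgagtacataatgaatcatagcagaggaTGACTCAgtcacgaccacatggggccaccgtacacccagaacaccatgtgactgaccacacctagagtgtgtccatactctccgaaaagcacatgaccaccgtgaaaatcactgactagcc

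The Nudt13 window held 1 AP-1 and 3 C/EBP matches, and 3 bp separated the AP-1 match from the nearest C/EBP match. Its C/EBPα peak scored 120.11 (rank 239 of its list) and its JUNB peak 42.94 (rank 41). The Htra1 window had the same pair of motifs 5 bp apart and the C/EBPα peak ranked 8, but no JUNB peak overlapped it. The Rnh1 window held 1 AP-1 match and no C/EBP match. At the Gm19589, Gm13498, Wsb1 and Calcrl windows no exact match was found. The Calcrl window holds copies of ctatga in tandem, although its annotation names no repeat. All 8 peaks overlapped an IRF8 control peak and recurred in the IL-4 list of the same factor. Both were frequent at such ranks. In the highest C/EBPα score decile IRF8 overlapped 97.8% of peaks with JUNB and 83.6% without, and every peak recurred. In the highest JUNB decile, IRF8 overlapped 85.7% of peaks without C/EBPα and 76.2% of them recurred.

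Sites on tandem repeats led the JUNB ranks, so they are described before the comparisons. Simple repeats carried 163 of the 3940 JUNB peaks (4.14%) but 35 of the 100 with the highest score. In the C/EBPα list the counts were 171 of 24486 peaks (0.698%) and 2 of the top 100. Of the 35 JUNB peaks, 20 overlapped a C/EBPα peak and 15 did not, while all 35 overlapped an IRF8 control peak and all 35 recurred in the JUNB IL-4 list. In the whole highest JUNB score decile, IRF8 overlapped 94.5% of peaks with C/EBPα and 85.7% without, and 83.3% and 76.2% recurred. Counting both strands of a repeat together, all 16 on TTAGGG or CCCTAA repeats, the telomere sequence, were co-bound, against 1 of 12 on CATTC or GAATG repeats. The 5 pairs with the highest summed ranks all lay on TTAGGG repeats (nearest genes Tmem196, Gm14496, Mrgprd, Wls and Csf2ra), with C/EBPα scores of 122.57 to 145.09 and JUNB scores of 69.14 to 88.57. Their part in the results was measured by leaving out of every list the peaks annotated to simple repeats, satellites, low-complexity sequence or chromosome M. Peaks on repeats without such an annotation, as at Calcrl, stayed in.

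At Pparg, which encodes a nuclear receptor of lipid metabolism, the JUNB peak with the highest score among those without C/EBPα lay on a coding exon. It spanned chr6:115450869-115451185, scored 98.89 (rank 2 of the JUNB list) and covered all 139 coding bases of exon 5 of 8. Exons 3 and 4 of the gene also had JUNB peaks without C/EBPα, exon 3 with a score of 41.64 (177 of its 228 coding bases covered) and exon 4 with 17.27 (170 of 170). The C/EBPα control list had 15 peaks assigned to Pparg and 0 of them lay on an exon. In the IRF8 control list, 3 of 19 Pparg peaks were exonic, on the same exons 3, 4 and 5, with scores of 11.12, 6.29 and 34.61. After IL-4 the JUNB list had peaks on exons 3 and 5 and the IRF8 list on exons 3, 4, 5 and 6. Whether these peaks on coding exons reflect binding to chromatin was not tested. The JUNB control list held 36 exonic peaks in all, and every other gene had at most 1.

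Most JUNB peaks overlapped a C/EBPα peak, whereas most C/EBPα peaks overlapped no JUNB peak. A JUNB peak overlapped 11.6% of the C/EBPα peaks (2841 of 24486, interval 11.2% to 12.0%) and a C/EBPα peak overlapped 72.3% of the JUNB peaks (2849 of 3940, interval 70.9% to 73.7%). The lists differ in length, and once the C/EBPα list was cut to its 3940 peaks of highest score the shares were 23.1% and 23.2%. In the full lists only 14 C/EBPα and 7 JUNB peaks were in more than 1 pair. Lists of equal length must then give nearly equal shares, so the cut tests nothing about the asymmetry. With peaks scoring at least 10 in both lists the shares were 5.88% and 59.4%. Median scores were 11.195 in the C/EBPα and 7.88 in the JUNB control list, so this limit removes a larger part of the JUNB list. Of the 2856 overlapping pairs, 53.7% had the JUNB peak wholly inside the C/EBPα peak. The peak centres were a median of 39 bp apart (quartiles 17 and 73 bp), and 59.6% of pairs had centres within 50 bp.

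Peaks outside the overlap were not equally isolated. The 1091 JUNB peaks without C/EBPα had their nearest C/EBPα peak at a median of 6813 bp (quartiles 2608 and 25510 bp), and for 117 of them it lay within 1000 bp. For the 21645 C/EBPα peaks without JUNB the nearest JUNB peak was at a median of 87613 bp, with 344 within 1000 bp. The C/EBPα list is the longer, and a longer list lies nearer to any point.

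C/EBPα peaks with JUNB ranked higher in their own list than those without. Since no source states a unit for the peak score, it was read as a percentile within each list. The median percentile was 69.3 with JUNB and 47.8 without, a difference of 21.5 (19.6 to 23.1), with median scores of 19.57 and 10.50. By score decile, 5.50% of the weakest C/EBPα peaks (scores 1.40 to 4.53) and 26.5% of the strongest (47.74 to 264.79) overlapped a JUNB peak. For JUNB the contrast was smaller, with median percentiles of 52.7 with C/EBPα and 42.9 without (difference 9.82, 6.46 to 13.6) and shares of 65.1% in the lowest and 78.7% in the highest JUNB decile. Without the repeat peaks both differences stayed inside these intervals. Peak width followed the same order, at a median of 341 bp with JUNB and 260 bp without for C/EBPα, and 220 bp and 200 bp for JUNB. A wider peak has more bases that can meet another, and the part of width in the overlap was not tested. Within the pairs, the 2 ranks were only weakly related (Spearman's rho 0.107 over 2856 pairs, and 0.0930 over the 2724 off repeats, across sites that share libraries).

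**Figure D1:**
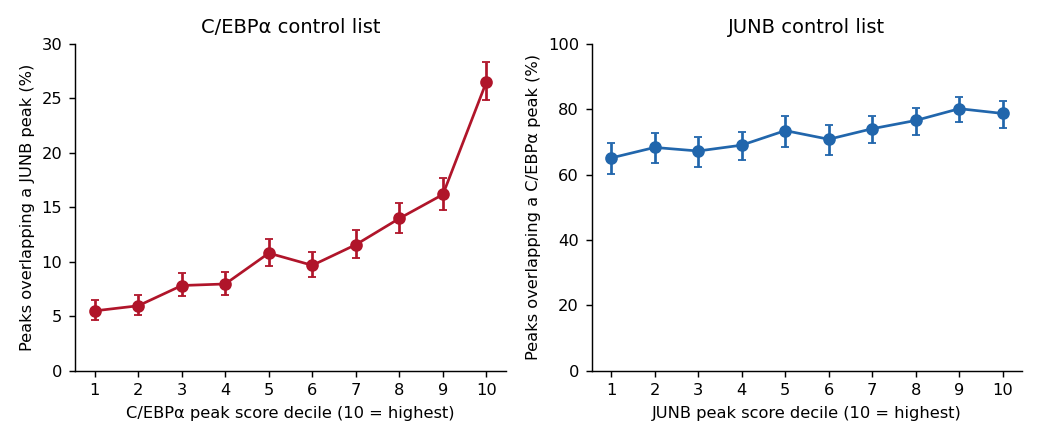
Share of C/EBPα control peaks that overlapped a JUNB control peak (left) and of JUNB control peaks that overlapped a C/EBPα control peak (right), in percent, by decile of the peak score in the peaks' own list. Points are shares and bars Wilson 95% intervals over peaks of 1 sample. The C/EBPα share is 5.50% in the lowest and 26.5% in the highest decile, and the JUNB share is 65.1% and 78.7%.

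The co-bound sites were distal. Promoters held 2.50% of C/EBPα peaks with JUNB (71 of 2841) and 7.45% of those without (1613 of 21645), a difference of -4.95 percentage points (-5.58 to -4.23), and the share was lower with JUNB in 10 of 10 C/EBPα score deciles. With promoters taken as 2000 bp around the TSS the difference was -8.78 points. Intergenic sites took 50.6% and 42.0%, and introns 44.0% and 46.5%. CpG islands away from promoters lay under 3 of the 2841 peaks with JUNB and under 108 of the 21645 without. The median distance to the TSS was 25848.5 bp with JUNB and 19427 bp without, a ratio of 1.33 (1.26 to 1.42). Within 1000 bp of a TSS lay 3.27% and 9.91%, and beyond 100000 bp 15.7% and 11.7%.

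On the JUNB side position differed little. Promoters held 2.39% of JUNB peaks with C/EBPα (68 of 2849) and 3.85% of those without (42 of 1091), a difference of -1.46 points (-2.87 to -0.291), which among peaks scoring at least 10 was -0.157 (-1.62 to 1.06). The median distances were 25905 bp and 27171 bp, and the interval of their ratio, 0.953 (0.839 to 1.09), included 1.

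Motifs separated the classes further. AP-1 matches lay in 39.4% of C/EBPα peaks with JUNB (1119 of 2841) and in 9.99% of those without (2163 of 21645), a difference of 29.4 points (27.6 to 31.2), or 18.2 points in windows of 100 bp. The C/EBP motif ran the other way, at 24.8% with JUNB and 35.6% without (difference -10.7 points, -12.4 to -9.01). Both orders held in 10 of 10 score deciles. In the strongest decile the C/EBP share was 48.5% with JUNB and 60.0% without, and in the weakest 7.41% and 22.9%. The 200 bp windows of C/EBPα peaks with JUNB thus held an exact C/EBP site less often than those of like-scored peaks without JUNB. Peaks with JUNB were wider, at a median of 341 bp against 260 bp, so more of their bases lay outside the windows. The part of width in this difference was not tested. For comparison, windows 2000 bp to either side of the peaks of both lists held an AP-1 match in 3.59% and a C/EBP match in 8.14%, and the 60856 merged regions of all 6 lists in 10.9% and 18.4%.

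JUNB peaks mirrored this. The C/EBP motif lay in 21.4% of JUNB peaks with C/EBPα (609 of 2849) and in 6.05% of those without (66 of 1091), a difference of 15.3 points (13.2 to 17.3). The second share (interval 4.78% to 7.62%) was no higher than the 8.43% in the flanks of the same peaks (184 of 2182 windows, 7.34% to 9.67%). AP-1 matches were more frequent without C/EBPα, at 55.7% against 44.5% (difference of with minus without -11.2 points, -14.6 to -7.70), in 9 of 10 JUNB deciles. The exception was the top decile, with 56.9% with and 35.7% without C/EBPα, and 65.4% (n = 269) and 53.7% (n = 54) once repeat peaks were left out.

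**Figure D2:**
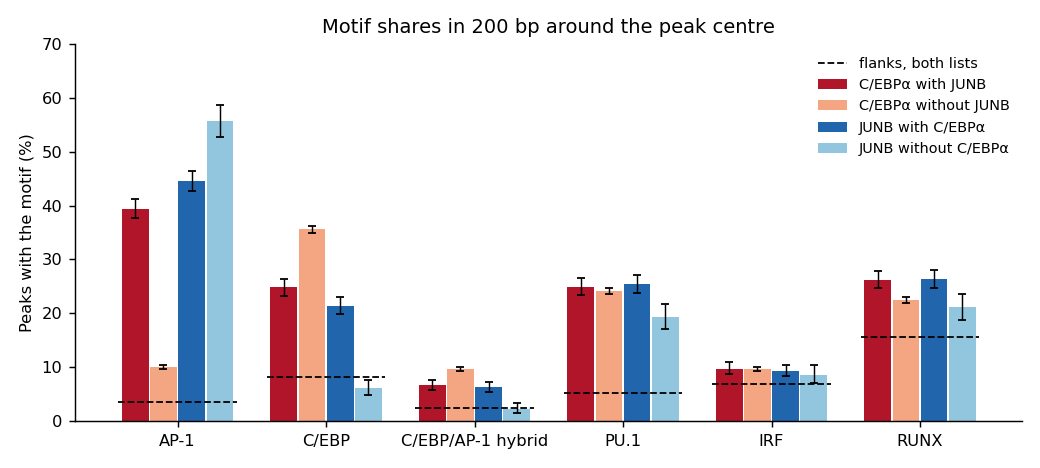
Percent of peaks with at least 1 exact motif match in the 200 bp around the peak centre, for the 4 peak classes. Bars are shares with Wilson 95% intervals over peaks of 1 sample per list, and dashed lines are the share in windows 2000 bp to either side of the peaks of both lists. AP-1 stands at 39.4%, 9.99%, 44.5% and 55.7% and C/EBP at 24.8%, 35.6%, 21.4% and 6.05% in the order of the legend.

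The other motifs separated the classes less. The PU.1 motif AGGAAGT lay in 24.9% of C/EBPα peaks with JUNB and 24.1% of those without, and the interval of the difference (-0.923 to 2.45 points) included 0. It lay in 25.4% of JUNB peaks with C/EBPα and 19.2% of those without (difference 6.13 points, 3.23 to 8.89), against 5.16% in the flanks. The RUNX motif TGTGGT was at 26.2% and 22.5% for C/EBPα, and at 26.3% and 21.1% for JUNB. The IRF motif GAAANNGAA was at 9.71% and 9.60%, and at 9.30% and 8.52%, with intervals of the differences that included 0. Hybrid sites were fewer where JUNB sat with C/EBPα, at 6.69% of C/EBPα peaks with JUNB and 9.66% of those without (difference -2.97 points, -3.92 to -1.92). Among JUNB peaks they were at 6.21% with C/EBPα and 2.20% without, the latter near the 2.06% of its flanks. The CRE motif TGACGTCA lay in 10 of 2849 and 8 of 1091 JUNB peaks. All motifs were searched on both strands. The hybrid letters match neither the AP-1 nor the C/EBP letters at one position, while the purine-rich PU.1 and IRF matches can share bases.

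AP-1 matches lay nearer to the JUNB than to the C/EBPα centres at co-bound sites, while C/EBP matches lay at like distances from both. In C/EBPα peaks without JUNB, the C/EBP match nearest to the centre was a median of 24.0 bp away (7698 peaks), and with JUNB 33.0 bp (705 peaks). From the centre of JUNB peaks with C/EBPα it was 35.0 bp (609 peaks). AP-1 matches sat a median of 26.5 bp from the centre of JUNB peaks with C/EBPα and 24.5 bp from that of JUNB peaks without, but 36.5 bp from the centre of the C/EBPα peaks with JUNB. In JUNB peaks without C/EBPα the 66 peaks with a C/EBP match had it at a median of 60.5 bp, away from the centre. Where an AP-1 and a C/EBP match shared a co-bound C/EBPα window (260 peaks), their midpoints were a median of 45.0 bp apart (quartiles 23.5 and 76.5 bp), and 45 were within 20 bp, as at Nudt13.

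**Figure D3:**
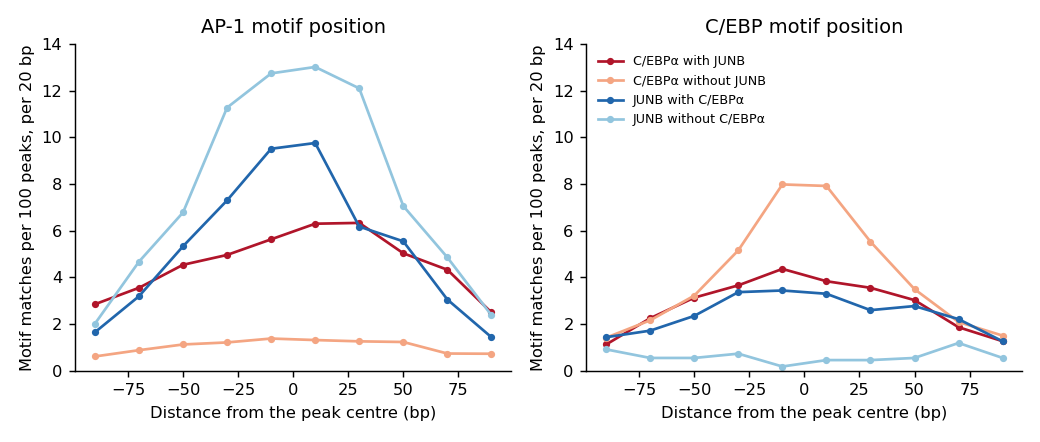
Exact AP-1 (left) and C/EBP (right) motif matches per 100 peaks in 20 bp bins by distance from the peak centre, for the 4 peak classes, without error bars. AP-1 matches reach 13.0 per 100 peaks beside the centre of JUNB peaks without C/EBPα and 1.38 in C/EBPα peaks without JUNB, while C/EBP matches beside the centre number 7.98 in the latter and 0.183 to 0.458 in the former.

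Among the 2841 co-bound C/EBPα peaks, the motif content went with which factor ranked higher. AP-1 without C/EBP was found in 859 peaks (30.2%), C/EBP without AP-1 in 445 (15.7%), both in 260 (9.15%) and neither in 1277 (44.9%). With the C/EBP motif alone, the median C/EBPα percentile was 89.8 (87.7 to 91.7) and that of the overlapping JUNB peak 46.2 (39.7 to 51.1). With the AP-1 motif alone, the medians were 54.3 (51.6 to 57.7) for C/EBPα and 62.8 (59.1 to 65.0) for JUNB. Sites with both motifs had 82.7 and 58.8, high for each factor, and sites with neither 66.9 and 47.3. Of C/EBPα peaks without JUNB, by contrast, 6.91% had AP-1 alone, 32.5% C/EBP alone, 3.09% both and 57.5% neither. Their median C/EBPα percentiles were 59.4 with C/EBP alone, 53.5 with both, 42.3 with neither and 37.4 with AP-1 alone. This order was that of the co-bound peaks, so the order of the C/EBPα ranks was not particular to co-bound sites. Of JUNB peaks without C/EBPα, 52.5% had AP-1 alone, 2.84% C/EBP alone, 3.21% both and 41.4% neither.

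**Figure D4:**
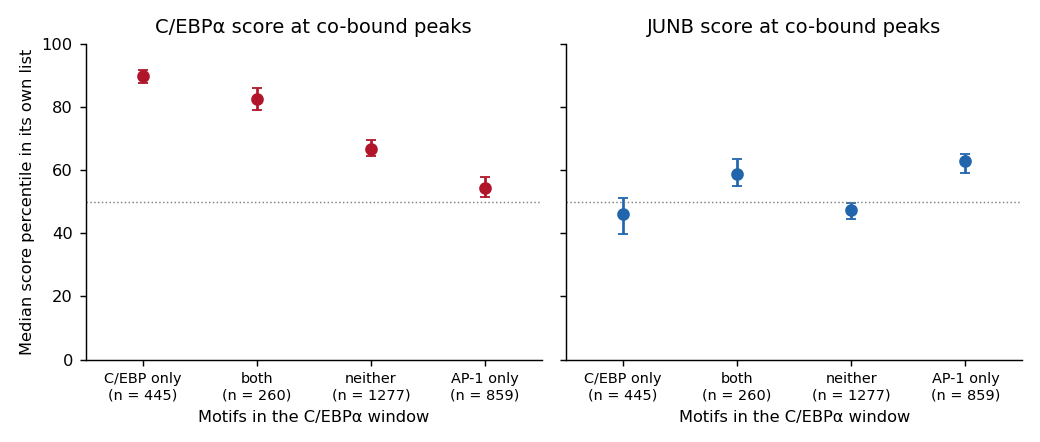
Median score percentile of C/EBPα (left) and of the overlapping JUNB peak (right) at co-bound C/EBPα peaks, grouped by the exact motif matches in the 200 bp C/EBPα window. Bars are order-statistic 95% intervals over peaks of 1 sample per list, and the dotted line marks the middle of each list. C/EBPα medians run from 89.8 at sites with C/EBP alone to 54.3 at those with AP-1 alone, and JUNB medians are 46.2 and 62.8.

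IRF8, an interferon regulatory factor of the myeloid lineage, had a peak at most co-bound sites. An IRF8 control peak overlapped 88.8% of C/EBPα peaks with JUNB (2523 of 2841) and 54.0% of those without (11697 of 21645), a difference of 34.8 points (33.4 to 36.1). The order held in 10 of 10 C/EBPα deciles, from 78.5% against 42.0% in the weakest to 97.8% against 83.6% in the strongest. When the peaks without JUNB were weighted to the decile mix of those with JUNB the difference was 27.4 points. For JUNB peaks the shares were 88.3% with C/EBPα (2517 of 2849) and 61.2% without (668 of 1091), a difference of 27.1 points (24.0 to 30.3), again in 10 of 10 deciles. The IRF8 list holds 37525 peaks, the longest of the 3 control lists. Co-bound peaks were wider, at a median of 341 bp against 260 bp for C/EBPα and 220 bp against 200 bp for JUNB. The part of width in these IRF8 shares was not tested. Among C/EBPα peaks without JUNB, 45.3% of those with the C/EBP motif alone and 59.6% of those with neither motif overlapped IRF8, and among the co-bound peaks 90.8% and 90.5%.

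Co-bound peaks recurred more often in the lists of IL-4-treated cells. The C/EBPα IL-4 list held a peak at 91.7% of C/EBPα peaks with JUNB (2604 of 2841) and at 76.9% of those without (16654 of 21645), a difference of 14.7 points (13.5 to 15.8). The difference was 5.30 points after weighting to the same score deciles, and the share was higher with JUNB in 8 of 10 deciles. In the weakest decile 53.3% and 40.7% recurred, in the fifth 90.9% and 80.4%, and in the highest every peak of both classes. JUNB peaks recurred at 39.5% with C/EBPα (1126 of 2849) and 26.0% without (284 of 1091), a difference of 13.5 points (10.3 to 16.6), higher with C/EBPα in 10 of 10 JUNB deciles. Among peaks scoring at least 10 in each list it was 5.91 points (1.33 to 10.3). That limit lies above the median score of both JUNB lists, 7.88 in control and 6.21 after IL-4. The JUNB IL-4 list is shorter, with 2325 peaks, and depth and IL-4 cannot be told apart with 1 sample each. Co-bound peaks were also wider, and the part of width in their recurrence was not tested.

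**Figure D5:**
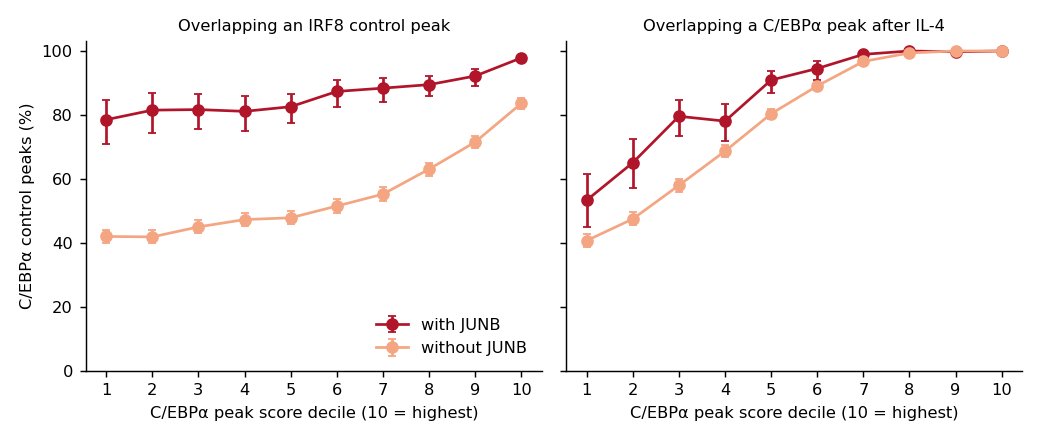
Percent of C/EBPα control peaks, with and without JUNB, that overlapped an IRF8 control peak (left) or a C/EBPα peak of the IL-4-treated cells (right), by decile of the C/EBPα score. Points are shares and bars Wilson 95% intervals over peaks of 1 sample. The IRF8 curves are apart in every decile (78.5% against 42.0% in the lowest), and the IL-4 curves meet in the highest, where every peak recurred.

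Counted by pairs, C/EBPα peaks recurred after IL-4 more often than the JUNB peaks they overlapped. Of the 2856 pairs, 1551 (54.3%) had a C/EBPα peak but no JUNB peak after IL-4, 1068 (37.4%) had both, 61 (2.14%) had JUNB without C/EBPα, and 176 (6.16%) had neither. The pairs that kept both had median control percentiles of 74.5 for C/EBPα and 73.4 for JUNB. Those that kept C/EBPα alone had 71.1 and 41.9, so they differed in the JUNB rank and little in the C/EBPα rank. In the other direction, 18.6% of the JUNB peaks without C/EBPα in control (203 of 1091) overlapped a C/EBPα peak of the IL-4-treated cells. For C/EBPα peaks without JUNB, 2.24% (484 of 21645) overlapped a JUNB peak there. The IL-4 lists hold 24612 C/EBPα and 2325 JUNB peaks, and a longer list overlaps more peaks of any class. The part of list length in these shares and in the pair counts was not tested.

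Peaks were assigned to the gene with the nearest TSS by HOMER, which need not be the gene a site acts on. Of the 9327 genes with a C/EBPα peak, 2088 had at least 1 co-bound peak (22.4%, or 10.4% among peaks scoring at least 10), and 6787 had no JUNB peak of any kind. JUNB peaks fell to 2715 genes. Of these, 175 had no C/EBPα peak, and at 452 both factors had peaks that nowhere overlapped. The share of genes with a co-bound peak went with their number of C/EBPα peaks, from 7.81% of the 4302 genes with 1 peak to 82.1% of the 274 genes with at least 10. Shares of peaks are therefore given beside shares of genes. Genes with the most co-bound C/EBPα peaks were 1700016G22Rik (10 of 27), Gm20125 (9 of 23), Rap2b (6 of 19), Slc7a11 (6 of 13), Pid1 (6 of 23), 1700112H15Rik (6 of 15), Btg1 (6 of 30), H2afy3 (5 of 16), Mir3110 (5 of 16) and Dab2 (5 of 21). Slc7a11 encodes the cystine transporter, Rap2b a small GTPase, Btg1 an anti-proliferative factor and Dab2 an endocytic adaptor.

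The factors' own gene families had co-bound shares whose intervals include that of the whole C/EBPα list, 11.6%. At 17 genes of the AP-1 family and related basic zippers, 6 of 87 C/EBPα peaks were co-bound (6.90%, 3.20% to 14.2%), and 4 of the 15 genes with a C/EBPα peak had one (26.7%, against 22.4% of all such genes). Maf, a large Maf factor, had 3 co-bound sites among 28 C/EBPα and 6 JUNB peaks. Atf3 had 1, at chr1:191230643-191230937, 47457 bp upstream of its TSS, with a JUNB score of 23.35 (rank 163) and a C/EBPα score of 46.14. Jun had 1 (JUNB score 9.23, C/EBPα 5.35) and Batf3 had 1 (JUNB 7.77, C/EBPα 52.01). The subunit genes Fos (2 JUNB peaks, up to 8.65), Junb (1, at 4.86, rank 3275) and Jund (1, at 9.91) had JUNB peaks that no C/EBPα peak overlapped. Fos had 8 C/EBPα peaks, Junb 1 and Jund 0. In the whole JUNB list, 1091 of 3940 peaks overlapped no C/EBPα peak, and with so few peaks no difference from this was tested. Fosl2 and Batf had 8 and 6 C/EBPα peaks and no JUNB peak. In the C/EBP family, 1 of 11 C/EBPα peaks was co-bound (9.09%, 1.62% to 37.7%), at Cebpd, downstream of the gene (JUNB 5.37, C/EBPα 43.83). Cebpa and Cebpg had 4 C/EBPα peaks each and no JUNB peak.

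Co-bound sites lay at many genes of macrophage function. Among 25 surface receptor genes, all 25 had a C/EBPα peak and 16 had a co-bound one (64.0%, against 22.4% of all genes with a C/EBPα peak). Of their 115 C/EBPα peaks, 23 were co-bound (20.0%, 13.7% to 28.2%, against 11.6% in the whole list). Gene shares went with the number of C/EBPα peaks, and peak shares with the C/EBPα score, from 5.50% to 26.5% by decile. None of the gene lists was matched for either, and their members were chosen with earlier results of these data known. Cd36, a scavenger receptor for lipids, had 3 co-bound sites of 9 C/EBPα peaks, all in intron 1, and the strongest JUNB peak at chr5:17879952-17880213 (JUNB 18.10, C/EBPα 68.14). Clec4d, a C-type lectin receptor, had 3 of 6, and Tlr4, the endotoxin receptor, 2 of 8. Fcgr4 and Itgam, an Fc receptor and an integrin, had 7 and 5 C/EBPα peaks without a JUNB peak. Inflammatory mediators had 21 of 99 C/EBPα peaks co-bound (21.2%, 14.3% to 30.3%), at 15 of 25 genes (60.0%, against the same 22.4%). Ptgs2, the inducible cyclooxygenase, had 3 of 4, with JUNB scores of 21.04, 7.81 and 3.95 and C/EBPα scores of 45.02, 16.56 and 141.02 at the same sites. The neutrophil chemokine Cxcl1 had 3 of 4 and the monocyte chemokine Ccl2 2 of 7. The cytokine genes Il6 (5 C/EBPα peaks, up to 114.49) and Il12b (4, up to 37.94) had no JUNB peak.

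At some single sites the score percentiles of the 2 factors, each within its own list, lay far apart. At Cd44, the hyaluronan receptor, the site 47054 bp upstream was at percentile 97.6 for JUNB and 48.6 for C/EBPα. At Pltp, a phospholipid transfer protein, the co-bound site was at 86.0 for JUNB and 28.8 for C/EBPα. At Id3, an inhibitor of helix-loop-helix factors, one site was at 59.3 for JUNB and 99.6 for C/EBPα. Serpinb2, an inhibitor of plasminogen activators, had 2 co-bound peaks of 4, the stronger C/EBPα peak at percentile 99.2 and its JUNB peak at 48.6. Spp1, the matrix protein osteopontin, had 1 of 7, 54324 bp upstream, high in both lists at 95.7 for JUNB and 87.0 for C/EBPα.

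For macrophage transcription factors, 23 of 157 C/EBPα peaks were co-bound (14.6%, 9.96% to 21.0%). They lay at 11 of 18 genes (61.1%, against 22.4% of all genes with a C/EBPα peak). Zeb2 (5 of 14), Runx1 (5 of 21) and Id3 (3 of 4) were in front, with 0 of 4 at Nr4a1 and 0 of 3 at Irf4. Colony-stimulating factor receptors had 4 of 29 (13.8%, 5.50% to 30.6%). Csf1r, the M-CSF receptor, had 2 of 10, Flt3 had 1 of 2, and the 1 of 5 at Csf2ra is a TTAGGG repeat 102998 bp away. Csf2rb and Il3ra had 6 and 2 C/EBPα peaks and no JUNB peak. Lysosome and lysozyme genes had 16 of 98 (16.3%, 10.3% to 24.9%), led by the proteases Ctsc (3 of 19) and Lgmn (3 of 7) and the proton pump subunit Atp6v0d2 (2 of 7), while Gpnmb and Ctsl had 7 and 5 C/EBPα peaks without JUNB. Lipid handling genes had 12 of 68 (17.6%, 10.4% to 28.4%), with Cd36 again and Abca1, the cholesterol exporter (3 of 9), in front, and Scarb1 and Lpl, with 6 C/EBPα peaks each, without JUNB. Matrix remodelling genes had 7 of 55 (12.7%, 6.30% to 24.0%), and Plau and Mmp13 had 4 C/EBPα peaks each and no JUNB peak. All these intervals but those of the surface receptor and inflammatory lists include the 11.6% of the whole list. The intervals count peaks of the same gene as separate and make no allowance for the 10 lists. With lists chosen knowing earlier results of these data, no list was shown to differ from the whole.

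At granulocyte genes no co-bound site was found. Of the 16 listed genes, 12 had a C/EBPα peak, and 0 of their 22 C/EBPα peaks were co-bound, which allows a share of up to 13.6% (3 counts of 22, with a Wilson upper limit of 14.9%). Fpr2, a formyl peptide receptor, had 4 C/EBPα peaks with a top score of 140.29 and Gfi1, a transcriptional repressor, 3 with a top score of 91.73. The 11.6% of the whole list lies within both limits, so no difference was detectable with 22 peaks.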

How the data were processed

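C/EBPα, JUNB and IRF8 were mapped by ChIP-seq in control and IL-4-treated macrophages, with 1 sample each. Per the labels and methods, the authors used BWA to align to mm10, MACS2 to call peaks sample by sample, the ENCODE blacklist to remove regions and HOMER to annotate. The submitters' processing notes name BWA 0.7.10, SAMtools 0.1.19, HOMER 4.2 and MACS2 2.0.10. Libraries were made with 1 of 2 kits, and which kit served which sample, the control library and the read depth are not given in the sources used here. The peak score as deposited comes without a unit and was used as a rank within its list. The exception is the limit of 10, which was applied to the raw scores of every list. The deposited distance to the TSS is in bp.

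Peaks overlapping by at least 1 bp were paired. Motif searches used GRCm38 windows of 200 bp centred on the peak midpoint, not the summit, and 0 peaks ended past their chromosome. Peaks without a HOMER gene (11 C/EBPα, 1 JUNB) stayed out of gene counts. Named peaks were the 5 of highest rank per class and sequences the first 3 that were intronic or intergenic, off repeats and off chromosome 18. Of these windows 1 is not reported here. Named genes were, per list, the 3 with most co-bound peaks and the 2 with most C/EBPα peaks but no JUNB peak, with AP-1 and C/EBP genes that had a JUNB peak and the 10 genes with most co-bound peaks. Pparg exons 3 and 4 and the sites with percentiles far apart were singled out after their values were seen. Members and lists were chosen with earlier results of these data known. With 1 sample a side no test was run. Scripts ran under Python 3.11.15 with pandas 2.3.3 and were tested on simulated data and against bedtools 2.31.1.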

Additional observations from a re-analysis of the deposited data

How the results depend on the processing

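No paired analysis was possible because each group holds 1 sample, and no replicate could be left out. Of 38 values under other settings 19 lay within the interval of the reported value and 19 moved, with 0 turning a direction whose interval excluded no difference. Leaving out repeat peaks, an alternative chosen after seeing the data, kept 14 of 15 values within their interval and moved the C/EBPα overlap share to 11.2%. Requiring an overlap of 50% of the narrower peak gave a JUNB overlap share of 70.3% and an IRF8 difference at C/EBPα peaks of 36.5 points. With peaks scoring at least 10 in every list, the overlap shares were 5.88% (C/EBPα) and 59.4% (JUNB), the gene share 10.4%, the distance ratio at C/EBPα peaks 1.51, the promoter difference at JUNB peaks -0.157 points, the IRF8 differences 36.6 (C/EBPα) and 23.8 points (JUNB), and the IL-4 recurrence differences 12.2 and 5.91 points. Cutting the C/EBPα list to 3940 peaks gave overlap shares of 23.1% and 23.2% and a gene share of 27.4%. A promoter defined as 2000 bp around the TSS gave a difference of -8.78 points at C/EBPα peaks. In 100 bp windows the motif differences were 18.2 points (AP-1, C/EBPα peaks) and 11.2 points (C/EBP, JUNB peaks). Weighting to equal score deciles gave 27.4 points for IRF8 and 5.30 points for IL-4 recurrence at C/EBPα peaks. The causes were not tested, except that the score limit and the shorter list remove peaks and the 100 bp window holds fewer bases. The score limit removes a larger part of the JUNB lists than of the C/EBPα lists. Unknown read depth limits every share, since a weaker library loses peaks at the calling threshold.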

Other observations

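Repeat classes other than the simple repeats were also counted. SINE elements lay under 4.95% of JUNB peaks without C/EBPα (54 of 1091, 3.81% to 6.40%) and under 2.25% of those with C/EBPα (64 of 2849, 1.76% to 2.86%). DNA transposons went the other way, at 0.642% (7 of 1091) and 1.33% (38 of 2849), with intervals that overlap. Satellites lay under 0.702% of JUNB peaks with C/EBPα (20 of 2849, 0.455% to 1.08%). Without C/EBPα the satellite share was 0.0917% (1 of 1091, 0.0162% to 0.517%), and these intervals overlap too. LTR elements, which can carry enhancers, lay under 6.28% of JUNB peaks with C/EBPα and 7.06% of those without, and under 6.44% of C/EBPα peaks with JUNB and 7.99% of those without. The median GC content of the 200 bp windows was 46.0% in C/EBPα peaks with JUNB and 45.5% in those without, and 46.0% and 47.0% in JUNB peaks with and without C/EBPα.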
